A study of Mus musculus with 24 samples.

Results

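The genes described here are 9 genes of the Nodal and Lefty pathway in mouse embryonic stem cells (mESCs): the ligands *Nodal* and *Gdf3*, the extracellular antagonists *Lefty1* and *Lefty2*, the co-receptor *Tdgf1*, the receptors *Acvr1b* and *Acvr2b*, the proprotein convertase *Furin* and the intracellular inhibitor *Smad7*. They were chosen by their symbols, and all 9 were found among the 35022 genes counted after PD03 removal and the 48709 genes counted after CHIRON removal. *Lefty1*, *Lefty2* and *Smad7* were selected on their changes across substrates and times in these same data, so their values are described without a test. The 6 other members were tested across all genes. E14 mESCs, an established mouse embryonic stem cell line, were plated on soft or stiff StemBond hydrogels and kept for 12 h in medium with leukaemia inhibitory factor (LIF) and the 2 inhibitors of "2i". These were 1 µM PD03, which blocks MEK and so ERK signalling, and 3 µM CHIRON, which blocks GSK3 and so stabilises β-catenin. In the first experiment PD03 was withdrawn, which left CHIRON and LIF, and in the second CHIRON was withdrawn, which left PD03 and LIF. RNA was collected before withdrawal (0 h, in full 2i + LIF) and 2 h and 12 h after it on each substrate. Each of the 12 groups had 2 libraries, and 23 of the 24 libraries were used. The labels number the 2 libraries of a group without saying that they came from separate cultures, so the p-values measure the spread between these libraries, which may be technical. All groups shared the cell line, LIF and the preceding 12 h in 2i, and no group was free of inhibitors.

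Nodal is a secreted signal of the TGF-β family that works in the early embryo to maintain the epiblast, pattern its axis and specify mesoderm and endoderm. It is cut to its mature form by convertases such as Furin and Pcsk6, and it binds the type I receptor Acvr1b and the type II receptors Acvr2a and Acvr2b together with the co-receptor Tdgf1, also called Cripto. The receptors phosphorylate Smad2 and Smad3, which enter the nucleus with Smad4 and partners such as Foxh1. *Nodal*, *Lefty1* and *Lefty2* are themselves targets of this signal, and the Lefty proteins and Smad7 close negative feedback loops, outside and inside the cell. mESCs make Nodal and respond to it without adding the ligand.

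*Lefty1* and *Lefty2* are neighbours on chromosome 1 of GRCm38 (180935022 to 180938400 and 180893108 to 180899103, both on the plus strand). Their similarity bears on how well reads can be told apart. Over the whole coding sequences of 1107 bases each, taken from GENCODE M21, 91.9% of the bases were identical without a gap, and the longest identical run was 140 bases. Of all 50-base words in the transcripts of *Lefty1*, 17.9% also occurred in *Lefty2*, and 12.0% of those of *Lefty2* occurred in *Lefty1* or in the transcript *Gm44212*. A read that lies wholly in such a stretch cannot be assigned to a single gene, so small counts of either gene beside larger counts of the other are uncertain. *Tdgf1* shared 8.86% of its 50-base words with its pseudogene *Tdgf1-ps1*, and *Furin* overlapped an antisense gene, *Gm44851*, over 118 exonic bases. *Nodal*, *Smad7*, *Acvr1b* and *Acvr2b* shared no such word with another gene. *Gdf3* and *Furin* shared 1.77% and 1.76%, in each case with many unrelated genes.

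*Nodal* and *Tdgf1* both rose 12 h after CHIRON removal, so the promoters of both are shown from RefSeq on GRCm38.p6, from 250 bases before the start site to 50 bases after it, with motif matches in capitals. The motifs searched on both strands were the SMAD box CAGAC, the SMAD palindrome GTCTAGAC, the TCF/LEF motif CTTTGA with its longer form CTTTGAT, which contains it, and the FOXH1 motif TGTGGATT.
Nodal (chr10:61417722-61418021, plus strand): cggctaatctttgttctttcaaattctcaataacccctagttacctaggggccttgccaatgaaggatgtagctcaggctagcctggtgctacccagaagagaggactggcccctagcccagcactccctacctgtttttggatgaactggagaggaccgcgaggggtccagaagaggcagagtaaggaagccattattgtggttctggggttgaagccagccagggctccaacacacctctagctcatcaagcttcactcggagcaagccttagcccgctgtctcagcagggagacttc
Tdgf1 (chr9:110946109-110946408, minus strand): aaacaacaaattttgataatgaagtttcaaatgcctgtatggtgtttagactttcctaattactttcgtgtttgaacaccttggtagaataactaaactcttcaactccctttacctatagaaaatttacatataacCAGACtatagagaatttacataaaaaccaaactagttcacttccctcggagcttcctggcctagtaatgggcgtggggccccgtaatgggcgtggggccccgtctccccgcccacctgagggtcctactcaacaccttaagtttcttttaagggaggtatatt
The window of *Nodal* held none of the motifs, and that of *Tdgf1* held a single SMAD box, whose first base lay at −113 from the start site. Among 32851 promoters of the same length, 49.6% held a SMAD box, 0.213% the palindrome, 16% CTTTGA, 3.73% CTTTGAT and 0.855% the FOXH1 motif. A SMAD box was also found in both windows of *Furin* and in that of *Acvr2b*, and none in that of *Acvr1b*. Such a match is a short string of letters and not a measured binding site.

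Total counts ranged from 16222196 to 26442153 over the 12 libraries of PD03 removal, and the 11 libraries kept of CHIRON removal had 19393787 to 31111260. One library of CHIRON removal on stiff substrates at 2 h had 171333 counts, was discarded by the study and was left out, so that the 1 remaining library of that group is assumed to vary like the other groups. Levels are given as normalised CPM, counts scaled to the TMM-adjusted library size. Groups of so few libraries can separate without a difference between conditions. The share of all genes that separated was not counted, so statements on overlap describe these libraries only. The 7 ES cell markers summed to between 5602 and 7131 normalised CPM after PD03 removal and to between 4970 and 5470 after CHIRON removal. At 0 h of PD03 removal the sum was 6847 to 7000 on soft and 6911 to 6915 on stiff substrates. At 12 h it was lower, 5866 to 6000 and 5602 to 5610, and its part in the levels of the members was not tested. The 6 primitive endoderm markers summed to at most 17.3, the 5 fibroblast markers to at most 6.63, the 4 neural progenitor markers to at most 32.5 and the 5 trophectoderm markers to between 56.8 and 98.1, mostly *Tfap2c*, with *Postn* at 0 or 1 count in every library. The withdrawals could be read in their target genes. The 4 ERK response genes *Egr1*, *Dusp6*, *Spry4* and *Fos* summed to between 57.5 and 71.2 at 0 h and to between 333 and 505 at 2 h after PD03 removal. The 4 Wnt response genes *Axin2*, *Sp5*, *Cdx1* and *Nkd1* went from between 465 and 536 at 0 h to between 41.7 and 49.7 at 12 h after CHIRON removal.

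After PD03 removal, the antagonist *Lefty2* had the widest range of the 9 members, 8.06 times between its lowest and highest library. On soft substrates its 2 libraries stood at 13.9 and 10.3 normalised CPM at 0 h, at 2.92 and 3.58 at 2 h, and at 1.72 and 2.67 at 12 h. On stiff substrates they stood at 8.06 and 6.58 at 0 h, at 8.81 and 7.12 at 2 h, and at 3.75 and 1.90 at 12 h. The libraries on soft substrates were thus already low at 2 h, whereas those on stiff substrates overlapped 0 h at 2 h and were low at 12 h. The log2 fold change at 2 h was −1.90 (SE 0.23) on soft and 0.14 (SE 0.20) on stiff substrates, and the difference between these responses was −2.04 (SE 0.31). At 12 h the log2 fold changes were −2.46 (SE 0.24) and −1.34 (SE 0.25). Soft and stiff substrates did not overlap at 0 h, when soft was higher by a log2 fold change of 0.74 (SE 0.19), nor at 2 h, when soft was lower, with −1.30 (SE 0.24), and they overlapped at 12 h. Leaving out replicate 1 or 2 of the stiff libraries at 12 h moved the stiff value of *Lefty2* at 12 h to −1.93 or −0.95.

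*Lefty1* was the least abundant member, with between 8 and 34 counts in any library of PD03 removal. On soft substrates it stood at 1.96 and 1.46 normalised CPM at 0 h, 0.57 and 0.716 at 2 h, then 0.756 and 1.5 at 12 h. The stiff libraries stood at 1.82 and 1.52, then 1.04 and 1.01, then 1.37 and 1.32. The libraries at 2 h lay below those at 0 h on both substrates. The log2 fold change at 2 h was −1.41 (SE 0.43) on soft and −0.69 (SE 0.38) on stiff substrates, and at 12 h it was −0.59 (SE 0.37) and −0.30 (SE 0.37). Soft and stiff libraries of *Lefty1* overlapped at 0 h and 12 h. At 2 h the soft libraries lay below the stiff ones, with a log2 fold change of −0.67 (SE 0.48).

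**Figure D1:**
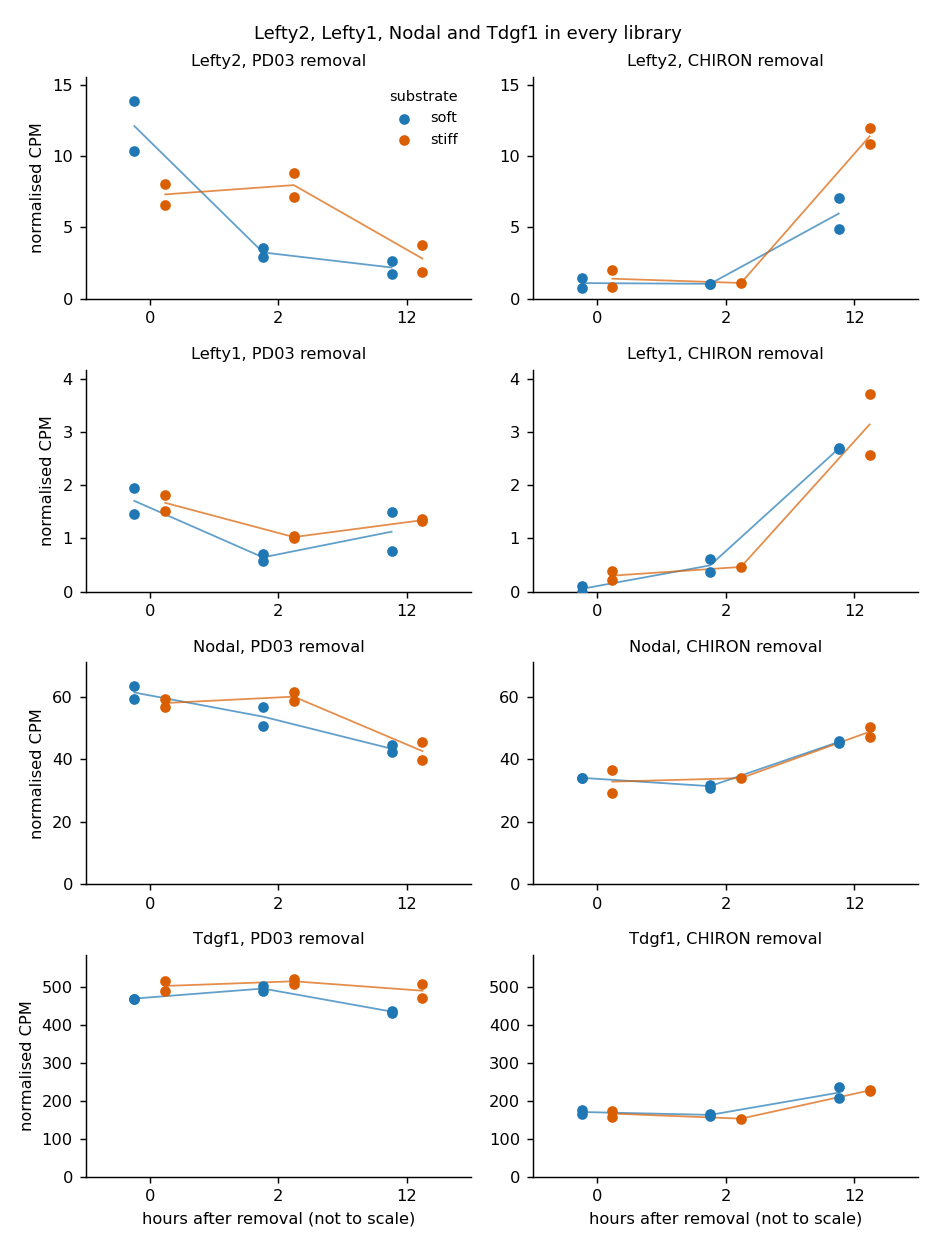
Normalised CPM of *Lefty2*, *Lefty1*, *Nodal* and *Tdgf1* (vertical axes, from 0) at 0, 2 and 12 h after removal of PD03 (left) or CHIRON (right), with 1 point per library and lines through the group means. *Lefty2* on soft substrates went from 13.9 and 10.3 to 2.92 and 3.58 at 2 h of PD03 removal, and on stiff substrates it stood at 10.8 and 11.9 at 12 h of CHIRON removal.

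*Nodal* (chromosome 10, 61417972 to 61425338) was lower on both substrates at 12 h of PD03 removal, past the threshold on each. On soft substrates it stood at 59.4 and 63.5 normalised CPM at 0 h, 50.6 and 56.9 at 2 h, then 42.4 and 44.5 at 12 h. Values in stiff libraries were 56.7 and 59.4, then 61.5 and 58.8, then 45.7 and 39.7. All 4 libraries at 12 h lay below all 8 earlier libraries. At 12 h *Nodal* had fallen by 0.50 on the log2 scale on soft substrates (SE 0.08, adjusted p = 8.82e-06, quasi-likelihood test of edgeR, adjusted by Benjamini-Hochberg over all genes) and by 0.44 on stiff substrates (SE 0.08, adjusted p = 3.78e-05, same edgeR test). At 2 h its log2 fold changes were −0.20 (SE 0.07, adjusted p = 0.244) and 0.05 (SE 0.07, adjusted p = 0.839), neither past the threshold in edgeR.

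The second ligand, *Gdf3* (chromosome 6, 122605403 to 122610087), which can pair with Nodal and also dampens BMP signals, ranged from 207 to 255 normalised CPM. It fell by 0.21 on stiff substrates at 12 h (SE 0.05, adjusted p = 0.00158, edgeR), from 247 and 241 to 210 and 212. On soft substrates it stood at 224 and 243 at 0 h and at 207 and 221 at 12 h, and its log2 fold change was −0.13 (SE 0.05, adjusted p = 0.0564, edgeR). From 2 h to 12 h *Gdf3* fell on both substrates, by 0.20 on soft (SE 0.05, adjusted p = 0.00296, edgeR) and by 0.23 on stiff (SE 0.05, adjusted p = 0.000613, edgeR). The co-receptor gene *Tdgf1* (chromosome 9, 110939603 to 110946158) held between 433 and 522. Its log2 fold changes at 12 h were −0.11 on soft (SE 0.04, adjusted p = 0.063, edgeR) and −0.04 on stiff substrates (SE 0.04, adjusted p = 0.556), and from 2 h to 12 h it fell by 0.19 on soft substrates (SE 0.04, adjusted p = 0.00169, edgeR). The receptor genes *Acvr1b* (chromosome 15, 101174067 to 101213684), at 107 to 127, and *Acvr2b* (chromosome 9, 119402118 to 119434995), at 10.4 to 15.3, did not pass the threshold at any time. The largest of their log2 fold changes against 0 h was that of *Acvr2b* at 12 h on soft substrates, 0.32 (SE 0.13, adjusted p = 0.0641, edgeR). *Furin* (chromosome 7, 80388585 to 80405436) ranged from 12.7 to 17.5 and did not pass it either, with −0.03 and −0.22 at 12 h on soft and stiff substrates (SE 0.12 each).

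*Smad7* (chromosome 18, 75367529 to 75395935), which blocks the receptors from inside the cell and is induced by several pathways besides Nodal, stood higher at 2 h of PD03 removal than before or after. On soft substrates it stood at 120 and 120 normalised CPM at 0 h, 174 and 163 at 2 h, then 110 and 121 at 12 h. On stiff substrates the values were 149 and 147, then 226 and 237, then 148 and 141. The libraries at 2 h lay above those at 0 h and at 12 h on both substrates, and the soft libraries lay below the stiff ones at each time. The log2 fold change at 2 h was 0.49 (SE 0.05) on soft and 0.64 (SE 0.05) on stiff substrates, and at 12 h it was −0.05 and −0.03 (SE 0.05 each). Soft against stiff gave −0.30 (SE 0.05) at 0 h, −0.46 (SE 0.05) at 2 h and −0.32 (SE 0.06) at 12 h. The sum of the 4 ERK response genes moved in the same libraries, from 57.5 and 57.7 on soft and between 66.1 and 71.2 on stiff substrates at 0 h to between 333 and 343 and between 461 and 505 at 2 h, and to between 182 and 183 and between 237 and 246 at 12 h. Its part in the levels of *Smad7* was not tested.

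**Figure D2:**
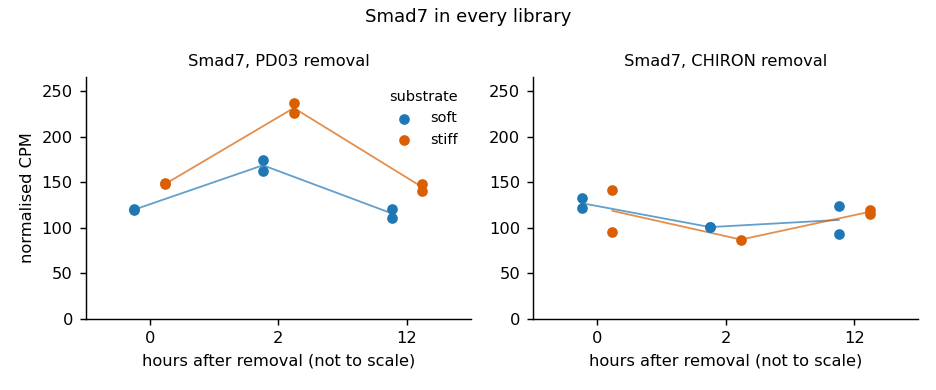
Normalised CPM of *Smad7* (vertical axes, from 0) at 0, 2 and 12 h after removal of PD03 (left) or CHIRON (right) on soft and stiff substrates, with 1 point per library and lines through the group means. After PD03 removal the stiff libraries reached 226 and 237 at 2 h and the soft ones 174 and 163, and both lay near their values of 0 h at 12 h.

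The other genes of the pathway were taken from a list of 43 genes in 8 roles, drawn up by function but with earlier results of these data known. With the 6 tested members, 38 genes of the list passed the filter on low counts after PD03 removal. At 2 h, 2 rose and 1 fell on soft substrates (7.89% of the 38, against 1.96% of all genes tested), and 5 rose on stiff substrates (13.2% against 2.73%), and no tested member was among them. At 12 h, 6 rose and 8 fell on soft substrates (36.8% against 29.4%), and 9 rose and 12 fell on stiff substrates (55.3% against 38.4%). The median log2 fold change of the 38 genes was −0.01 and −0.03, and no test was made of the list. From 2 h to 12 h, 6 rose and 12 fell on soft (47.4% against 31.4%) and 4 rose and 14 fell on stiff substrates (47.4% against 37.5%). Of the 6 tested members, 1 on soft (16.7%) and 2 on stiff substrates (33.3%) were called at 12 h against 0 h, no larger shares than among all genes.

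At 12 h of PD03 removal, ligands, intracellular inhibitors and target transcription factors each held genes that rose and genes that fell on both substrates. The called receptors fell, 1 of 5 on soft and 3 of 5 on stiff substrates. The called co-receptor (1 of 2) and extracellular antagonist (1 of 4) also fell on each substrate, and were *Tgfbr3* and *Bambi*. Among target transcription factors, *Eomes*, a T-box factor of early mesendoderm, rose from 6.15 ± 0.894 to 15.1 ± 0.178 normalised CPM on soft and from 4.42 ± 0.275 to 19.6 ± 1.55 on stiff substrates at 12 h (SD, n = 2). These were log2 fold changes of 1.30 (SE 0.15, adjusted p = 1.3e-07, edgeR) and 2.15 (SE 0.16, adjusted p = 6.8e-12, edgeR). *Gsc*, the homeobox gene goosecoid of the organiser, fell from 5.44 ± 0.435 to 2.70 ± 0.417 and from 5.02 ± 0.751 to 1.27 ± 0.858 (SD, n = 2), by 1.01 (SE 0.25, adjusted p = 0.0026, edgeR) and 1.95 (SE 0.30, adjusted p = 5.7e-06, edgeR). Among ligands, *Inhbb*, which encodes the βB subunit of activin and inhibin, rose at 12 h by 0.87 and 0.66 on soft and stiff substrates. Among receptors and co-receptors, *Tgfbr2* fell by 0.53 and 0.81 and *Tgfbr3*, or betaglycan, by 0.51 and 0.77. The convertase gene *Pcsk6* fell by 0.38 and 0.28, the Smad anchor gene *Zfyve9* by 0.28 and 0.42, and the pseudoreceptor gene *Bambi* by 0.35 and 0.33. Among intracellular inhibitors, *Pmepa1*, which sequesters Smad2 and Smad3, rose by 0.62 and 1.06 and the co-repressor gene *Ski* by 0.31 and 0.51. The ubiquitin ligase gene *Smurf1* rose by 0.21 and 0.17 and the phosphatase gene *Ppm1a* fell by 0.17 and 0.16. The call of *Bambi* was lost with DESeq2 on both substrates, and that of *Smurf1* was lost with DESeq2 on both and without any 1 of the 4 stiff libraries. *Inhba*, *Cer1*, *Acvr1c* and *Lhx1* had at most 3 counts in every library, and *Gdf1* was not analysed here.

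Between soft and stiff substrates, no tested member passed the threshold in PD03 removal. At 0 h, 0.0298% of all genes were called, at 2 h 0.134% and at 12 h 0.776%. Of the 38 genes of the list, none was called at 0 h or 2 h by edgeR or by DESeq2. At an unadjusted p under 0.05 (edgeR) there were 6 and 7 of them, against 970 and 1150 of all 13404 genes tested. At 12 h 1 gene of the list was called. That gene, *Tgfbr3*, had 20.9 ± 2.08 normalised CPM in soft and 14.9 ± 0.751 in stiff libraries (SD, n = 2), a log2 fold change of 0.49 (SE 0.11, adjusted p = 0.017, edgeR), and its call was lost without any 1 of 3 of the 4 libraries. *Tdgf1* was lower on soft substrates in both libraries at each of the 3 times, by 0.10, 0.05 and 0.17 (SE 0.04 each, adjusted p = 0.661, 0.780 and 0.0634, edgeR). The adjusted p of its value at 12 h was 0.025 without the low-count filter and 0.030 in a fit of the compared groups alone (edgeR). It was not called by DESeq2, with size factors of DESeq2, with genes of every biotype or with a block by replicate. *Acvr1b* stood higher on soft substrates at each time, with log2 fold changes of 0.06, 0.10 and 0.16 (adjusted p = 0.851, 0.665 and 0.235, edgeR). The difference between the responses on soft and stiff substrates called 0.00746% of all genes at 2 h, which is 1 gene, and 0% at 12 h. Of all 13404 genes, 609 at 2 h and 899 at 12 h had an unadjusted p under 0.05 (edgeR), and DESeq2 called 0 at 12 h. No tested gene of the list was called for it by edgeR or DESeq2, with 6 at an unadjusted p under 0.05 at each time.

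After CHIRON removal, both Lefty genes stood higher at 12 h than at 0 h, the opposite of *Lefty2* after PD03 removal. *Lefty2* stood at 1.43 and 0.781 normalised CPM at 0 h on soft substrates, 1.04 and 1.07 at 2 h, then 7.08 and 4.86 at 12 h. The stiff libraries stood at 2.01 and 0.815 at 0 h, at 1.11 in the 1 library kept at 2 h, and at 10.8 and 11.9 at 12 h. All 4 libraries at 12 h lay above all 7 earlier ones, which overlapped each other. The log2 fold change at 12 h was 2.47 (SE 0.34) on soft and 3.01 (SE 0.32) on stiff substrates. Without replicate 1 or 2 of the stiff libraries at 0 h, the stiff value of *Lefty2* was 3.79 or 2.51. At 12 h the soft libraries were lower than the stiff ones, with a log2 fold change of −0.91 (SE 0.27), the same order as at 2 h of PD03 removal and the opposite of that at 0 h there.

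*Lefty1* was nearly undetected at 0 h of CHIRON removal, with 2 and 0 counts in the soft and 4 and 7 in the stiff libraries. At 2 h it had 10 and 7 counts on soft and 10 on stiff substrates, and at 12 h it had 72 and 42 on soft and 50 and 70 on stiff substrates. These were 2.70 and 2.69 normalised CPM on soft and 2.57 and 3.73 on stiff substrates at 12 h. On soft substrates the 114 counts at 12 h against 2 at 0 h gave a depth-scaled ratio of 58.4, with an exact 95% interval of 15.8 to 488 that covers counting error alone. At 2 h the ratio was 10.5, with an interval of 2.5 to 93.8. On stiff substrates the log2 fold change at 12 h was 3.37 (SE 0.52). At 0 h the soft libraries of *Lefty1* lay below the stiff ones, at the few counts given above. The libraries on the substrates overlapped at 12 h, and soft against stiff gave −0.22 (SE 0.39) on the log2 scale.

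*Nodal* and *Tdgf1* rose at 12 h of CHIRON removal on both substrates. *Nodal* stood at 34.1 and 34.1 normalised CPM at 0 h on soft substrates, 30.9 and 31.9 at 2 h, then 45.2 and 46.0 at 12 h. Values in stiff libraries were 36.6 and 29.2, then 34.0, then 50.4 and 47.3. All 4 libraries at 12 h were above the 7 earlier ones. The log2 fold change at 12 h was 0.42 on soft (SE 0.10, adjusted p = 0.00837, edgeR) and 0.57 on stiff substrates (SE 0.10, adjusted p = 0.000767, edgeR). The call of *Nodal* on soft substrates was lost without replicate 2 of 0 h (adjusted p = 0.063, edgeR). Over both substrates, the summed neural progenitor markers ranged from 14.8 to 18.4 at 0 h of this experiment and from 28.9 to 32.5 at 12 h. That sum was mostly *Sox1*, at 11.4 to 28.8 over the 11 libraries. The summed trophectoderm markers ranged from 74.8 to 80.0 and from 91.2 to 98.1. Over the 11 libraries *Tfap2c* stood at 49.4 to 61.5, *Gata3* at 6.07 to 24.4 and *Cdx2* at 0 to 6.67. The part of these markers in the levels of *Nodal*, *Tdgf1* and the Lefty genes was not tested. *Tdgf1* stood at 176 and 165 at 0 h on soft substrates, 160 and 166 at 2 h, then 207 and 236 at 12 h. On stiff substrates the values were 175 and 158, then 153, then 225 and 230. Its log2 fold change at 12 h was 0.38 on soft (SE 0.08, adjusted p = 0.00339, edgeR) and 0.45 on stiff substrates (SE 0.08, adjusted p = 0.000738, edgeR), and the soft call of *Tdgf1* was lost without replicate 2 of 0 h (adjusted p = 0.064) or of 12 h (adjusted p = 0.055).

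Of the remaining tested members, only *Acvr1b* passed the threshold at 12 h against 0 h of CHIRON removal, on stiff substrates. *Acvr1b* fell on stiff substrates from 39.7 and 43.5 to 34.9 and 32.0 at 12 h, by 0.31 (SE 0.10, adjusted p = 0.0322, edgeR), a call that was lost in 6 of 12 alternatives, among them leaving out replicate 2 of 0 h (adjusted p = 0.224) or either replicate of 12 h (0.056 and 0.233). On soft substrates its log2 fold change was −0.14 (SE 0.10, adjusted p = 0.340, edgeR). *Gdf3* ranged from 144 to 174 normalised CPM, *Acvr2b* from 14.4 to 18.1 and *Furin* from 39.7 to 49.5, and none passed the threshold. *Smad7* stood at 133 and 121 at 0 h on soft substrates, 101 and 100 at 2 h, then 92.8 and 124 at 12 h. The stiff libraries stood at 141 and 95.7, then 86.9, then 115 and 120. The libraries of *Smad7* at 2 h lay below those at 0 h on each substrate, with log2 fold changes of −0.33 (SE 0.14) and −0.45 (SE 0.17), and the stiff value was −0.14 without replicate 1 of 0 h. The sum of the ERK response genes was also lower at 2 h, between 33.4 and 39.3, than at 0 h, between 57.5 and 69.8. Its part in the levels of *Smad7* was not tested here either.

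**Figure D3:**
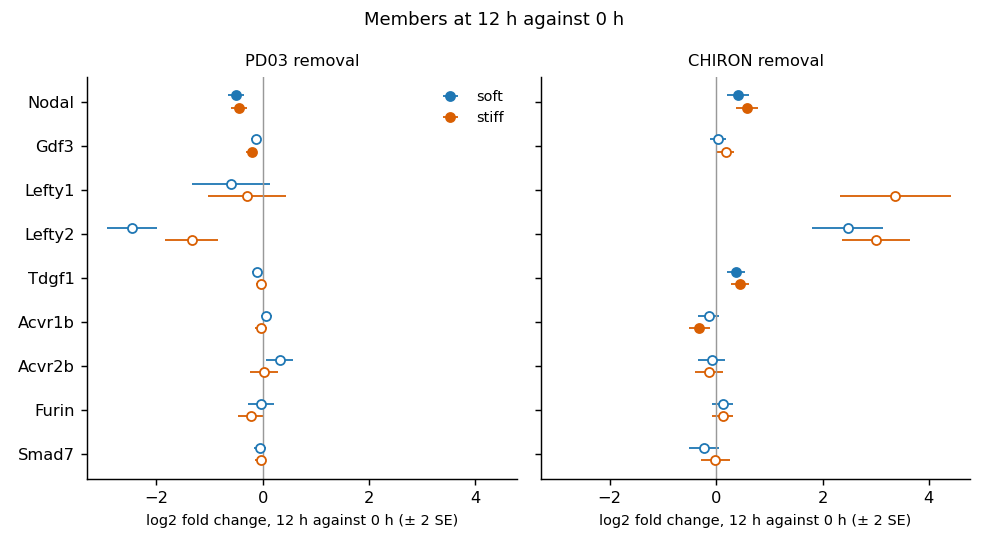
Log2 fold changes at 12 h against 0 h (horizontal axes) of the 9 members on both substrates, for PD03 removal (left) and CHIRON removal (right), with bars of 2 SE. Filled points passed the threshold, and open points did not or, for *Lefty1*, *Lefty2* and *Smad7*, were not tested. *Nodal* lies at −0.50 and −0.44 on the left and at 0.42 and 0.57 on the right, and *Lefty1* on soft substrates is left out on the right because 0 h held 2 counts in all.

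Of the 39 genes of the list tested after CHIRON removal, none was called at 2 h on either substrate by edgeR or DESeq2, with 1 and 3 at an unadjusted p under 0.05. Of all 14615 genes, 0.226% on soft and 0.103% on stiff substrates were called at that time, and 1328 and 1019 had an unadjusted p under 0.05 (edgeR). At 12 h, 9 rose and 1 fell on soft substrates (25.6% of the 39, against 17.8% of all genes), and 8 rose and 4 fell on stiff substrates (30.8% against 16.8%). Of the 6 tested members, 2 were called on soft (33.3%) and 3 on stiff substrates (50%). The median log2 fold change of the list was 0.07 and 0.06. From 2 h to 12 h, 9 rose and 3 fell on soft (30.8% against 16.9%) and 7 rose and 3 fell on stiff substrates (25.6% against 10.4%).

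Ligand, transducer and inhibitor genes were among those that rose. *Inhbb* went from 6.75 ± 1.13 to 20.2 ± 6.15 normalised CPM on soft and from 6.43 ± 0.0451 to 22.0 ± 0.294 on stiff substrates (SD, n = 2), log2 fold changes of 1.56 (SE 0.18, adjusted p = 9.5e-06, edgeR) and 1.77 (SE 0.19, adjusted p = 2.7e-06, edgeR). *Smad3* rose from 29.8 ± 4.36 to 47.6 ± 2.2 and from 32.2 ± 3.03 to 47.9 ± 2.99 (SD, n = 2), by log2 fold changes of 0.68 and 0.57. Among intracellular inhibitors, *Pmepa1* rose by 0.84 and 0.85, the co-repressor gene *Skil* by 0.93 and 0.63, *Smurf1* by 0.53 and 0.43 and the homeobox repressor gene *Tgif1* by 0.30 and 0.37. *Tgfbr3* fell by 0.52 and 0.60. *Inhba*, *Acvr1c* and *Gdf1* had at most 3 counts in every library. The calls of *Tgif1* and *Tgfbr3* on soft substrates were each lost without replicate 2 of 0 h.

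Between soft and stiff substrates, no gene was called in CHIRON removal at any time by edgeR (0% at 0 h, 0% at 2 h and 0% at 12 h), nor for the difference in response (0% at 2 h and 0% at 12 h). Between 415 and 838 genes had an unadjusted p under 0.05 in these 5 comparisons, and DESeq2 called 0 genes in each. Of the 39 genes of the list, DESeq2 called none, and between 0 and 2 had an unadjusted p under 0.05. Libraries of a group varied more here than in PD03 removal, with biological coefficients of variation of 0.0797 against 0.0386. The numbers of calls in the experiments are thus not directly comparable. The log2 fold changes for soft against stiff of the 6 tested members lay between −0.11 and 0.20 over the 3 times, with standard errors of 0.08 to 0.15. At 12 h that of *Nodal* was −0.10, with an interval of 2 SE from −0.30 to 0.10, so that differences of either sign within these bounds remain possible.

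**Figure D4:**
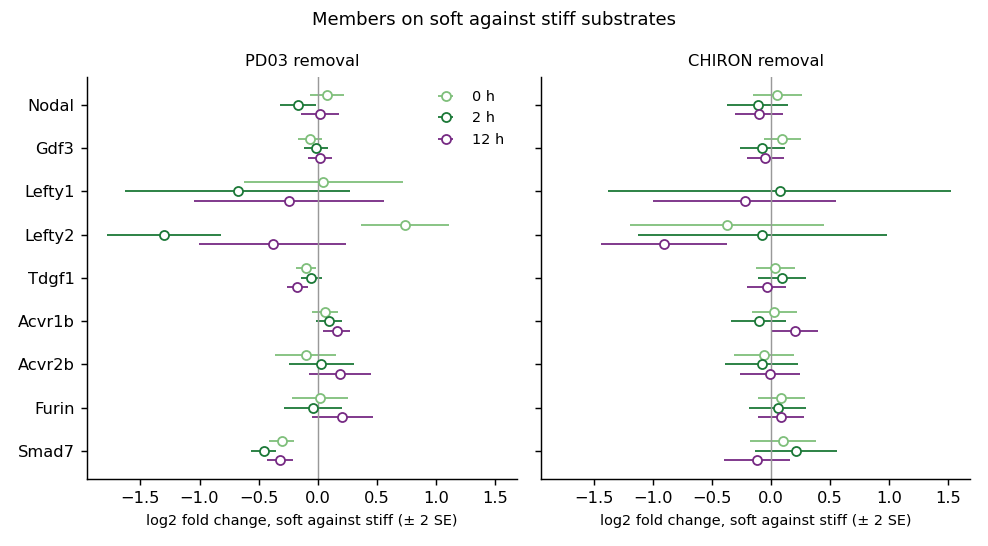
Log2 fold changes for soft against stiff substrates (horizontal axes, negative where soft was lower) of the 9 members at 0, 2 and 12 h of PD03 removal (left) and CHIRON removal (right), with bars of 2 SE. Open points did not pass the threshold or, for *Lefty1*, *Lefty2* and *Smad7*, were not tested. *Lefty2* changes side between 0 h and 2 h of PD03 removal, from 0.74 to −1.30, and *Lefty1* at 0 h of CHIRON removal is left out for its 2 counts on soft substrates.

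The responses to the withdrawals were compared in a joint fit of the 23 libraries, averaged over the substrates. At 12 h the response of *Nodal* to PD03 removal was lower than that to CHIRON removal by 0.97 on the log2 scale (log2 difference −0.97, SE 0.09, adjusted p = 2.35e-09, edgeR). The same held for *Tdgf1*, with −0.49 (SE 0.06, adjusted p = 1.05e-06), and *Gdf3*, with −0.27 (SE 0.07, adjusted p = 0.00163), whereas *Acvr1b* had 0.25 (SE 0.07, adjusted p = 0.00886). *Acvr2b* had 0.28 (SE 0.13, adjusted p = 0.093) and *Furin* −0.25 (SE 0.11, adjusted p = 0.0701). The difference of *Lefty2* was −4.64 (SE 0.31) and was not tested. In all, 4 of 6 members (66.7%) and 18 of 42 genes of the list (42.9%, 7 higher and 11 lower) were called at 12 h, against 36.1% of all genes. At 2 h, 3 of the 42 (7.14%, 2 higher and 1 lower) were called, against 3.5% of all genes, and no member was among them. *Smad7*, which was not tested, had a difference of 0.96 (SE 0.12) at 2 h and 0.08 (SE 0.11) at 12 h. *Nodal* stood at 56.7 to 63.5 normalised CPM at 0 h of PD03 removal and at 29.2 to 36.6 at 0 h of CHIRON removal. At 12 h its ranges overlapped, at 39.7 to 45.7 and 45.2 to 50.4. Those of *Lefty2* were 6.58 to 13.9 and 0.781 to 2.01 at 0 h, then 1.72 to 3.75 and 4.86 to 11.9. The differences in response thus start from unequal levels at 0 h. Each withdrawal has its own 0 h libraries, but the experiments also differ in all else that separates them, and experiment and inhibitor cannot be told apart.

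The members spanned a wide range of levels. Per kilobase of exon, the 4 libraries at 0 h of PD03 removal ranked *Tdgf1* highest at 185 ± 8.39 normalised CPM per kilobase, then *Gdf3* at 98.5 ± 4.09, *Smad7* at 29.6 ± 3.59, *Nodal* at 28.5 ± 1.33 and *Acvr1b* at 25.9 ± 0.913 (SD, n = 4 libraries on both substrates). *Lefty2* at 3.72 ± 1.21, *Acvr2b* at 3.08 ± 0.130, *Furin* at 1.66 ± 0.102 and *Lefty1* at 0.961 ± 0.135 followed. Only the ranges of *Smad7* and *Nodal* and of *Lefty2* and *Acvr2b* overlapped among neighbours in this order. At 0 h of CHIRON removal the order was *Tdgf1* at 64.3 ± 3.20, *Gdf3* at 61.7 ± 2.66, *Smad7* at 27.1 ± 4.37, *Nodal* at 16.0 ± 1.48, *Acvr1b* at 9.51 ± 0.400, *Furin* at 4.75 ± 0.421, *Acvr2b* at 4.43 ± 0.242, *Lefty2* at 0.482 ± 0.223 and *Lefty1* at 0.0989 ± 0.0931 (SD, n = 4). There the ranges of *Tdgf1* and *Gdf3* and of *Furin* and *Acvr2b* overlapped. The medium at 0 h was the same by the labels, yet the ranges of *Tdgf1*, *Gdf3*, *Nodal*, *Acvr1b* and both Lefty genes were lower in the second experiment, those of *Furin* and *Acvr2b* were higher, and those of *Smad7* overlapped. The counts of the experiments were normalised separately, so these levels stand side by side without a test.

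Across libraries, the log2 levels of *Nodal* and *Lefty2* had a Pearson correlation of 0.89 over the 12 libraries of PD03 removal and 0.96 over the 11 of CHIRON removal. *Nodal* and *Tdgf1* had 0.39 and 0.95, *Lefty1* and *Lefty2* 0.53 and 0.86, and *Smad7* and *Nodal* 0.38 and 0.27. The libraries of a group share a substrate and a time, so these values describe the groups rather than independent samples. Among 13170 genes tested in both experiments, the 5 genes most like *Nodal*, by the smaller of the correlations, were *Hist2h2aa2* (0.96), *Map2k1* (0.95), *Nanog* (0.94), *Igfbp2* (0.93) and *Xpnpep1* (0.93). Those most like *Lefty2* were *Hist1h2bn* (0.90), *Nodal* (0.89), *Hist2h2aa2* (0.89), *Ndrg1* (0.88) and *Hist1h2bj* (0.88). For *Lefty1* they were *B3galnt1* (0.82), *Rhob* (0.79), *Tns1* (0.77), *Usf1* (0.76) and *Vax2* (0.73), and for *Smad7* they were *Cirbp* (0.82), *Hnrnpab* (0.76), *Cct7* (0.75), *Eif4a3* (0.74) and *Ctf2* (0.74).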

How the data were processed

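RNA of mESCs on soft and stiff StemBond hydrogels was sequenced in 24 libraries after depletion of ribosomal RNA. The authors trimmed reads with Trim Galore, aligned them to GRCm38 with TopHat 2.1.0 and counted reads per gene with featureCounts 1.5.0 and an Ensembl annotation, and the raw counts per gene were deposited without normalisation. Whether reads were counted by strand is not given in the sources used here, so counts of overlapping antisense genes are uncertain. Multi-mapping reads may be lost or split between similar genes. The authors' table of PD03 removal held 35022 genes and 23 empty lines, and 12 further columns, of other samples, were not used. The table of CHIRON removal held 48709 genes. Of these genes, 34822 and 48349 matched GENCODE M21, and 19286 and 21695 were protein-coding. Numbers stood in place of 15 identifiers of the former. Libraries were grouped by their titles. The chi-square between replicates, per degree of freedom, was 2.23 to 3.24 in PD03 removal and 6.55 to 19.7 in CHIRON removal.

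Protein-coding genes were filtered with filterByExpr (minimum count 10, minimum total count 15), normalised by TMM and fitted with edgeR's quasi-likelihood test (edgeR 4.0.16, R 4.3.3), with all 6 groups of an experiment in a single model. This left 13404 genes after PD03 removal, 14615 after CHIRON removal and 14742 in the joint fit, with biological coefficients of variation of 0.0386, 0.0797 and 0.0605. Adjustment over all genes followed Benjamini and Hochberg, with a threshold of 0.05, and standard errors were derived from the log2 fold change and its F statistic. The 24 comparisons set each pair of times against each other within a substrate, compared the substrates within a time, and compared the responses between substrates and between withdrawals. Correlations used log2 CPM with a prior count of 2. The procedure was tested on simulated data with 200 genes changed by a log2 fold of 1. The noise followed edgeR's own estimate of spread. Smaller changes, like those of the tested members, were not simulated, so their recovery is not known. edgeR recovered 163 with 11 false calls for 12 h on soft substrates in PD03 removal and 141 with 4 in CHIRON removal, and DESeq2 recovered 149 with 4 and 123 with 4.

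The members and lists were chosen with earlier results of these data known. All 9 members were named. Of the other 43 genes of the list, those named had passed the threshold at 12 h against 0 h on both substrates of an experiment (at most 4 per role and experiment, by the fold change on stiff substrates), in soft against stiff, or in a difference in response, and those at 3 counts or fewer were listed by name. Coding sequences were compared from GENCODE M21, and promoters came from RefSeq (GRCm38.p6), where those of 5 members were found. A sequence is not reported here. Alternatives were DESeq2 1.42.0, edgeR with size factors of DESeq2, omission of the low-count filter, inclusion of genes of every biotype, a fit of the compared groups alone, a block by replicate or tube number, the discarded library added, and leaving out each replicate. Python 3.11.15 with pandas 2.3.3, numpy 2.4.6 and matplotlib 3.10.9 served for tables and plots. Intervals of counts cover counting error only.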

Additional observations from a re-analysis of the deposited data

Results flagged for a closer look

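Each result below was singled out because the response to PD03 removal differed from that to CHIRON removal in edgeR's joint fit, averaged over substrates, as a log2 difference that is positive where the response to PD03 removal was higher. Experiment and inhibitor cannot be told apart in any of them.

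Among the members at 12 h the differences were −0.97 for *Nodal*, −0.49 for *Tdgf1*, −0.27 for *Gdf3* and 0.25 for *Acvr1b*. With the discarded library added, the call of *Nodal* was kept and those of *Tdgf1*, *Gdf3* and *Acvr1b* were lost (adjusted p = 0.592, 0.654 and 0.148, edgeR). That library belongs to the stiff group at 2 h, which the comparison at 12 h does not use. It enters there only through the shared filter, normalisation and estimate of spread.

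Among target genes at 12 h, *Eomes* had 2.06 and *Gsc* −2.08. *Foxa2* had 4.45, but it held at most 10 counts in any library of either experiment, so the size of that value depends on the prior count. Among ligands and antagonists, *Inhbb* had −0.90, *Dand5* 1.25 and *Fst* 0.47. The convertase gene *Pcsk5* had 1.89 and the receptor gene *Acvr2a* −0.36. Among transducers and intracellular inhibitors, *Smad3* had −0.86, *Skil* −0.63, *Tgif2* −0.31, *Smurf1* −0.29, *Tgif1* −0.17 and *Ski* 0.23.

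At 2 h *Fst*, which encodes the activin antagonist follistatin, had 0.90, *Tgif1* 0.36 and *Smad3* −0.43. The call of *Smad3* at 2 h was lost in most alternatives, among them DESeq2 (adjusted p = 0.063) and leaving out most single replicates, and that of *Tgif1* at 12 h likewise (DESeq2, adjusted p = 0.076). The calls of *Ski*, *Tgif2*, *Dand5* and *Foxa2* at 12 h were lost on leaving out some single replicates, and those of *Ski*, *Tgif1* and *Tgif2* at 12 h, *Smurf1* at 12 h, *Tgif1* at 2 h and *Smad3* at 2 h with the discarded library.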

How the results depend on the processing

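Of 4103 values of single genes under the alternatives, 144 changed sign, none of them a value past the threshold, and 293 lost their call, 42 of these with the discarded library of 171333 counts and 169 on leaving out a replicate. Numbers of called genes of the list moved by over 1.5 times as follows. With the discarded library added, those of CHIRON removal moved from 10 to 4 and from 12 to 3 at 12 h against 0 h on soft and stiff substrates and from 12 to 3 and from 10 to 1 at 12 h against 2 h, and those of the difference between withdrawals from 3 to 1 at 2 h and from 18 to 10 at 12 h. Of these comparisons, only 12 h against 2 h on stiff substrates and the difference at 2 h used the group of that library. The others share with it only the filter, normalisation and estimate of spread. Soft against stiff at 12 h of PD03 removal moved from 1 to 2 without the low-count filter and in a fit of the compared groups alone. With the tube number as a block, 12 h against 2 h of CHIRON removal gave 7 on soft and 4 on stiff substrates.

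Pairing by replicate number was not seen, as libraries of the same number deviated from their groups with mean correlations of −0.0025 and −0.020. With the replicate number as a block, the list gave 3 and 5 called genes at 2 h of PD03 removal, 14 and 20 at 12 h, 9 and 11 at 12 h of CHIRON removal, and 17 for the withdrawals at 12 h, so that it moved no number by over 1.5 times. Leaving out each replicate gave 1 to 2 called genes at 2 h of PD03 removal on soft and 2 to 5 on stiff substrates, 9 to 14 at 12 h on soft substrates and 0 to 1 for soft against stiff at 12 h. For CHIRON removal it gave 5 to 9 at 12 h on soft substrates and 5 to 6 at 12 h against 2 h on stiff substrates. The stiff group at 2 h of CHIRON removal kept 1 library, which could not be left out. The causes were not tested. Depth limits *Lefty1*, with at most 72 counts in any library.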

Other observations

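The discarded library of CHIRON removal on stiff substrates at 2 h held 6 counts of *Furin*, 4 of *Smad7*, 1 each of *Lefty2*, *Tdgf1*, *Gdf3* and *Acvr1b*, and 0 of *Nodal*, *Lefty1* and *Acvr2b*.

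*Pmepa1*, a feedback inhibitor of Smad signalling, stood at 5.91 ± 0.0666 and 5.41 ± 0.752 normalised CPM on soft and stiff substrates at 0 h of PD03 removal and at 52.5 ± 2.49 and 48.8 ± 6.73 at 0 h of CHIRON removal (SD, n = 2), although the medium was the same by the labels. The tables were normalised separately, and this difference was not tested.

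The 5 formative and primed epiblast markers *Fgf5*, *Otx2*, *Pou3f1*, *Dnmt3b* and *Lef1* summed to between 225 and 252 normalised CPM at 0 h of PD03 removal and to between 309 and 343 at 12 h. After CHIRON removal they summed to between 83.4 and 101 at 0 h and to between 71.3 and 88.3 at 12 h. On stiff substrates of CHIRON removal the sums at 0 h and 12 h overlapped. In both experiments the sums were mostly *Dnmt3b*. It ranged from 207 to 314 over the 12 libraries of PD03 removal and from 59.6 to 90.7 over the 11 of CHIRON removal. In PD03 removal *Fgf5*, *Pou3f1* and *Otx2* reached at most 0.720, 2.48 and 4.70, so the sums describe little beyond *Dnmt3b*.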
